A study of Arabidopsis thaliana with 8 samples.

Results

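The genes described here are the tau and phi glutathione S-transferases of Arabidopsis thaliana, taken by their locus identifiers as GSTU1 to GSTU28 and GSTF2 to GSTF14. They are 41 of the 28642 loci counted, 28 of the tau class and 13 of the phi class. RNA came from whole 14 days old Landsberg erecta seedlings in 4 groups of 2 biological replicates each: smn2 at 4 h and at 0 h of 0.1 µM flg22, and wild type (WT) at 4 h and at 0 h of the same treatment. The homozygous smn2 mutant is in Landsberg erecta like the WT, and flg22 is the flagellin peptide that plants perceive as a sign of bacteria. SMN2 is the gene HEN2, a helicase of the nuclear RNA exosome, which is background knowledge and not from the labels. Since a 4 h mock treatment was not analysed here, flg22, time of day and handling cannot be told apart in any 4 h change. Values are given for replicate 910 first and replicate 918 second.

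Glutathione S-transferases join the tripeptide glutathione to reactive, electrophilic molecules, which makes these soluble and ready for transport into the vacuole. The tau and phi classes are characteristic of plants and are known for detoxifying herbicides and the reactive lipids formed under stress. Several members also carry or conjugate natural products, among them camalexin, glucosinolates and anthocyanins. Many are widely used as marker genes of oxidative and chemical stress.

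The libraries held 6856882 to 15791296 gene reads, and 4 ribosomal RNA loci took 26.7% to 44.4% of them. HEN2 had 11.95 and 15.1 CPM (counts per 1000000 normalised gene reads) in smn2 at 4 h, against 55.7 and 50.01 CPM in WT. At 0 h it had 10.6 and 9.71 CPM in smn2, against 34.7 and 32.0 CPM in WT. Every smn2 library lay below every WT library, with log2 differences of -1.97 ± 0.20 (SE, adjusted p = 0.0048) at 4 h and -1.71 ± 0.20 (adjusted p = 0.0068) at 0 h. The HEN2 call was lost at 4 h without 1 of 3 libraries (adjusted p = 0.053 to 0.123) and at 0 h with only the 4 libraries compared in the fit (adjusted p = 0.066). FRK1, a receptor kinase gene used as a marker of flg22 perception, rose at 4 h by 9.30 in smn2 and by 6.75 in WT on the log2 scale. In smn2 at 0 h FRK1 had only 5 and 2 reads, so the size of its change there is known only roughly. The difference between its changes in the genotypes was not called. Leaf and root marker genes were detected in every library except TIP2;3, a root marker with no read in 1 smn2 library at 4 h, while 3 floral markers summed to 1.46 to 3.46 CPM.

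The tau and phi genes took a larger share of the RNA at 4 h than at 0 h in both genotypes. Together they held 0.719% and 0.558% of all gene reads in smn2 at 4 h, against 0.209% and 0.253% in smn2 at 0 h, and 0.643% and 0.548% in WT at 4 h, against 0.231% and 0.272% in WT at 0 h. The 13 phi genes summed to 5330 and 5220.3 CPM in smn2 at 4 h, against 1072 and 1955 CPM at 0 h, and to 5274 and 4628 CPM in WT at 4 h, against 1330 and 2226 CPM at 0 h. For phi, both libraries at 4 h lay above both libraries at 0 h in each genotype. The 28 tau genes summed to 1210 and 1000 CPM in smn2 at 4 h, against 664 and 898 CPM at 0 h, and to 1287 and 1628 CPM in WT at 4 h, against 633 and 711 CPM at 0 h. The tau sums did not overlap between times in either genotype, with the smallest gap in replicate 918 of smn2. In whole seedlings, fewer cells of a type and less RNA per cell cannot be told apart.

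**Figure D1:**
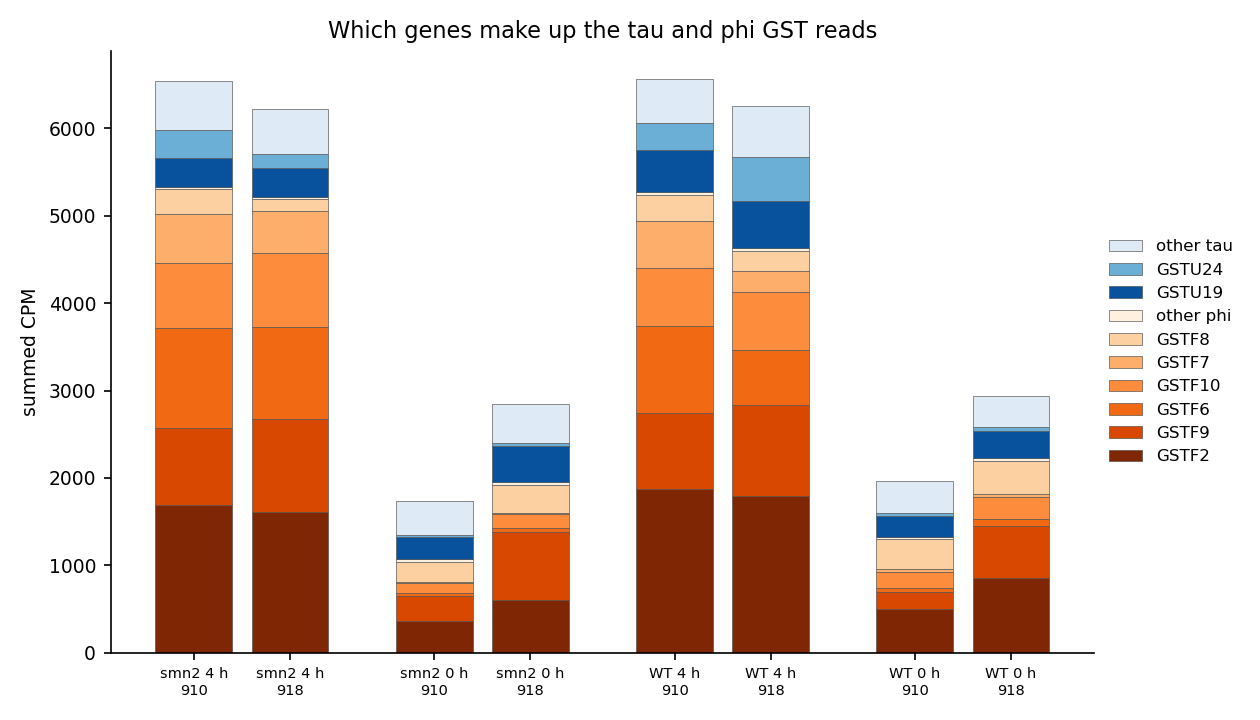
Summed CPM of the tau and phi genes in each library, with smn2 at 4 h and 0 h on the left and WT at 4 h and 0 h on the right, 2 libraries a group. Shades of orange are phi genes and shades of blue are tau genes; GSTF2 is the largest segment in every library at 4 h, and the GSTF6 and GSTF7 segments are wide at 4 h and narrow at 0 h.

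A few phi genes supplied most of these reads. GSTF2 (AT4G02520), which binds small indole and flavonoid compounds, made up 25.9% of the family's CPM in smn2 at 4 h, against 21.2% at 0 h, and 28.6% in WT at 4 h, against 27.7% at 0 h. GSTF6 (AT1G02930), which is implicated in camalexin synthesis, made up 17.2% of it in smn2 at 4 h, against 1.88% at 0 h, and 12.7% in WT at 4 h, against 2.48% at 0 h. GSTF8 (AT2G47730), known for a promoter that answers hydrogen peroxide and salicylic acid, made up a smaller share at 4 h. It had 3.26% in smn2 at 4 h, against 11.8% at 0 h, and 3.96% in WT at 4 h, against 14.7% at 0 h. Such a share also falls when other members rise. The log2 change of GSTF8 itself was -0.37 in smn2 and -0.51 in WT, and neither was called. Per kilobase of exon, the order of mean levels in WT at 4 h began with GSTF2, GSTF9, GSTF6, GSTF10 and GSTU19, with 1854, 984, 755, 660 and 512 CPM per kilobase. In WT at 0 h it began with GSTF2, GSTF9, GSTU19, GSTF10 and GSTF8, with 686, 408, 278, 218 and 208 CPM per kilobase. At the other end, GSTU15, GSTU21, GSTF5 and GSTF13 had 5 to 34 reads over all 8 libraries and did not pass the filter on low counts, so 37 of the 41 members were tested. GSTU15 had no read in WT at 4 h, which allows up to 0.176 CPM over the group, and GSTF5 none in smn2 at 0 h, which allows up to 0.162 CPM; these limits cover counting error only.

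Of the 37 tested members, 14 rose and 5 fell in smn2 at 4 h, and 14 rose and 4 fell in WT at 4 h (edgeR quasi-likelihood test, Benjamini-Hochberg adjusted p below 0.05 over all 19649 loci tested). In smn2, 12.6% of all loci tested rose and 8.88% fell, and in WT 10.1% rose and 6.56% fell. The members that rose were thus 37.8% of those tested in either genotype, and those that fell 13.5% in smn2 and 10.8% in WT, closer to the background of all loci. The median log2 change of the 37 members was 0.40 in smn2, against -0.04 over all loci, and 0.88 in WT, against -0.01 over all loci, as a description without a test. By class, 9 tau and 5 phi genes rose in each genotype. The genes that fell, 5 in smn2 and 4 in WT, were all tau genes, while the phi gene GSTF12 was called lower in WT by DESeq2 (adjusted p = 0.034). Without the WT 0 h library of replicate 910, 9 members rose and 1 fell in WT, where 4.41% of all loci tested then rose and 2.47% fell. With the sequencing run as a replicate block, 17 members rose in WT, against 12.1% of all loci tested, with GSTU13 (log2 change 0.94, adjusted p = 0.0186), GSTU19 (0.90, adjusted p = 0.0190) and GSTF9 (1.48, adjusted p = 0.0214) added.

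**Figure D2:**
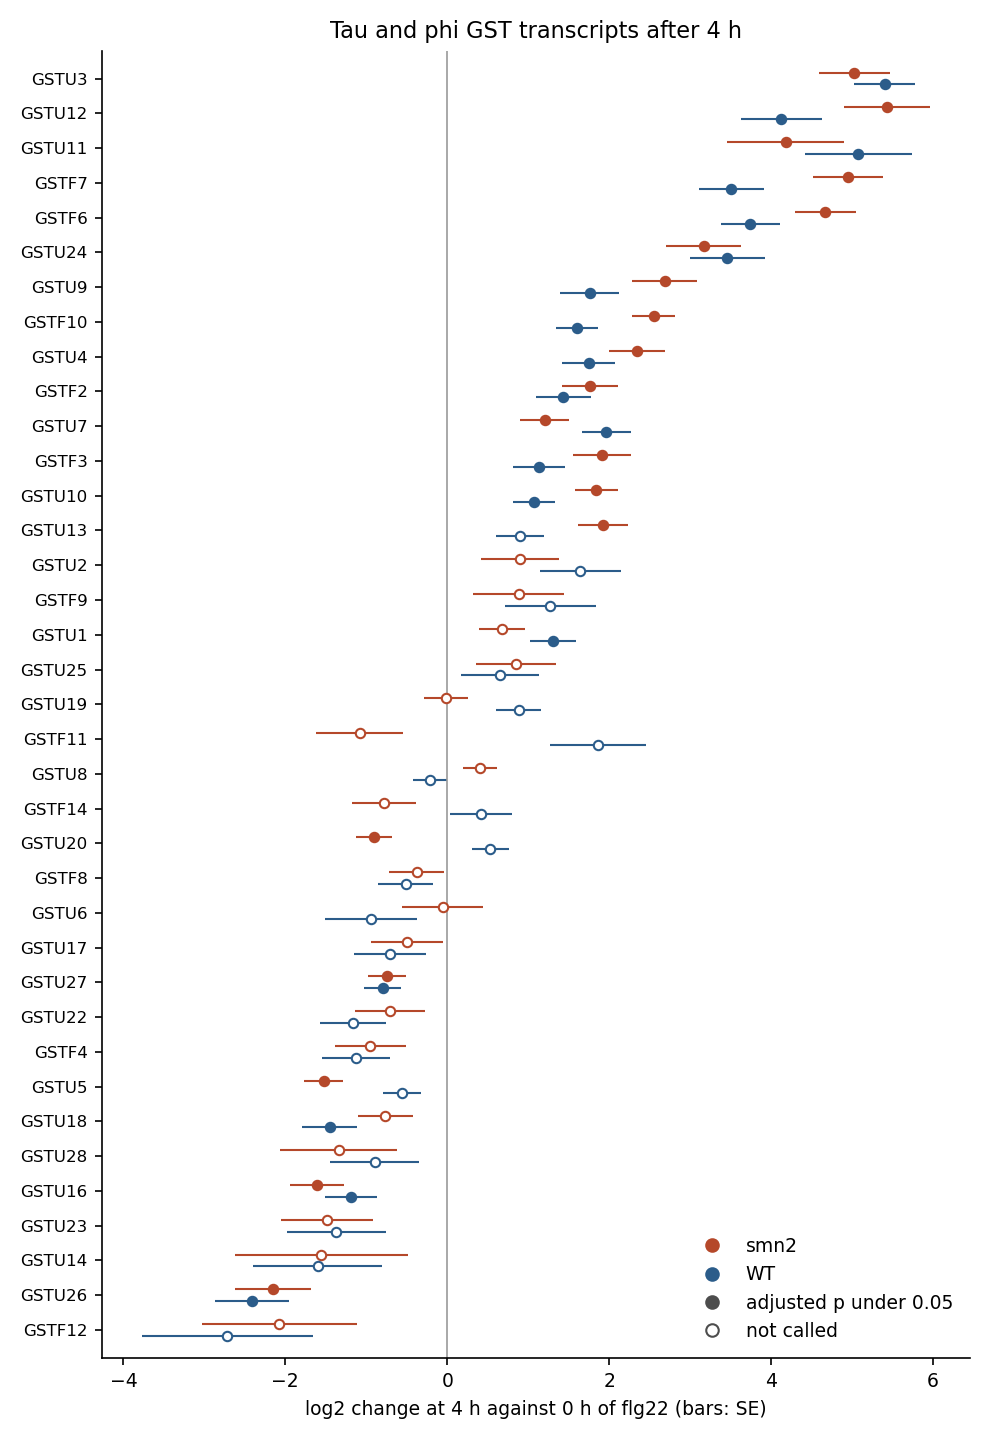
Log2 change at 4 h against 0 h for the 37 tested members, with smn2 as the upper and WT as the lower point of each row and bars of 1 SE; filled points passed the adjusted p of 0.05. The 6 genes at the top, GSTU3 to GSTU24, lie above 3 in both genotypes, and GSTU26 and the uncalled GSTF12 lie below -2 in both.

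In all, 13 members rose in both genotypes: GSTU3, GSTU4, GSTU7, GSTU9, GSTU10, GSTU11, GSTU12, GSTU24, GSTF2, GSTF3, GSTF6, GSTF7 and GSTF10. GSTU16, GSTU26 and GSTU27 fell in both. GSTU1 rose and GSTU18 fell past the threshold in WT, and GSTU13 rose and GSTU5 and GSTU20 fell past it in smn2. The difference of the 4 h changes between genotypes was tested for every locus and none passed the adjusted p of 0.05 (0% of 19649 loci in either direction, and 23 higher and 3 lower by DESeq2, of which 0 were members). With edgeR, 847 loci (4.31%) had an unadjusted p below 0.05 for that difference, among them 7 of the 37 members (18.9%). A call in 1 genotype alone is therefore not a shown difference between them.

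The steepest rises among phi genes were those of the adjacent genes GSTF6 and GSTF7. GSTF6 had 1145 and 1044 CPM in smn2 at 4 h, against 37.1 and 49.0 CPM at 0 h, and 1000.2 and 627 CPM in WT at 4 h, against 45.4 and 76.1 CPM at 0 h. The 4 h libraries lay far above the 0 h libraries in both genotypes, with log2 changes of 4.67 ± 0.38 in smn2 (SE, adjusted p = 8.2e-05) and 3.74 ± 0.36 in WT (adjusted p = 0.00032). GSTF7 (AT1G02920), whose coding sequence is 94.7% identical to that of GSTF6, had 565 and 475 CPM in smn2 at 4 h, against 13.3 and 20.6 CPM at 0 h, and 544 and 247 CPM in WT at 4 h, against 31.0 and 38.6 CPM at 0 h. Its log2 change was 4.95 ± 0.43 in smn2 (adjusted p = 0.00012) and 3.51 ± 0.40 in WT (adjusted p = 0.00062), and 2.81 in WT without the 4 h library of replicate 910. Despite the close sequence match, 98.3% of GSTF6 reads and 97.8% of GSTF7 reads were uniquely placed. The untranslated ends of the transcripts were not compared.

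Among tau genes, the largest changes were in 3 genes that were hardly detected at 0 h. GSTU3 (AT2G29470) had 8.37 and 6.34 CPM in smn2 at 4 h, against 0.25 and 0.15 CPM at 0 h, and 12.9 and 14.6 CPM in WT at 4 h, against 0.32 and 0.30 CPM at 0 h. Its log2 change was 5.03 ± 0.44 in smn2 (SE, adjusted p = 0.00012) and 5.40 ± 0.38 in WT (adjusted p = 7.8e-05). At 0 h these values rest on 4 reads in smn2 and 9 reads in WT, so the ratio of normalised reads was 35.0 in smn2 (95% counting interval 13.3 to 131) and 43.5 in WT (22.5 to 96.4). GSTU11 (AT1G69930) had 17.7 and 10.08 CPM in smn2 at 4 h, against 0.08 and 1.82 CPM at 0 h, and 24.6 and 33.9 CPM in WT at 4 h, against 0.70 and 1.09 CPM at 0 h. Its log2 change was 4.18 ± 0.72 in smn2 (adjusted p = 0.0034) and 5.07 ± 0.66 in WT (adjusted p = 0.0012), but in smn2 it was 2.94 without the 0 h library of replicate 910, which held 1 read, and 7.196 without that of replicate 918. GSTU12 (AT1G69920), its neighbour, had 38.5 and 58.0 CPM in smn2 at 4 h, against 0.92 and 1.37 CPM at 0 h, and 26.2 and 9.92 CPM in WT at 4 h, against 1.13 and 0.89 CPM at 0 h. The groups of the times did not overlap for any of these 3 genes. With 2 libraries a group this does not set called members apart. In each genotype it also held for most uncalled members, GSTU14 and GSTU28 among them. The share of all loci without such overlap was not counted. The log2 change of GSTU12 was 5.44 ± 0.53 in smn2 (adjusted p = 0.00019) and 4.13 ± 0.50 in WT (adjusted p = 0.000865), and 3.24 in WT without the 4 h library of replicate 910.

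GSTU24 (AT1G17170), an enzyme that conjugates the explosive trinitrotoluene, combined a high level with a large change. It had 318 and 168 CPM in smn2 at 4 h, against 16.5 and 38.1 CPM at 0 h, and 311 and 511 CPM in WT at 4 h, against 33.4 and 41.5 CPM at 0 h. The log2 change was 3.17 ± 0.46 in smn2 (SE, adjusted p = 0.0014) and 3.46 ± 0.46 in WT (adjusted p = 0.0014), and 3.88 in smn2 without the 0 h library of replicate 918. GSTF10 (AT2G30870), first described as a gene answering dehydration, had 745 and 856 CPM in smn2 at 4 h, against 121 and 152 CPM at 0 h, and 659 and 664 CPM in WT at 4 h, against 184 and 252 CPM at 0 h. GSTF10 rose by 2.55 ± 0.26 in smn2 (adjusted p = 0.00026) and by 1.60 ± 0.26 in WT (adjusted p = 0.0030) on the log2 scale. GSTU9 (AT5G62480) had 20.97 and 9.43 CPM in smn2 at 4 h, against 2.68 and 1.97 CPM at 0 h, and 15.2 and 18.4 CPM in WT at 4 h, against 4.62 and 5.33 CPM at 0 h. It rose by 2.69 ± 0.40 in smn2 (adjusted p = 0.0016), 1.98 without the 4 h library of replicate 910, and by 1.76 ± 0.36 in WT (adjusted p = 0.010). The WT call on GSTU9 was lost without the 0 h library of replicate 910 (adjusted p = 0.0795) or the 4 h library of replicate 918 (adjusted p = 0.0643). GSTU7 (AT2G29420) had 74.9 and 53.0 CPM in smn2 at 4 h, against 25.7 and 30.0 CPM at 0 h, and 67.9 and 126 CPM in WT at 4 h, against 25.1 and 24.4 CPM at 0 h. Both 4 h groups lay above the 0 h groups, with log2 changes of 1.20 ± 0.30 in smn2 (adjusted p = 0.019) and 1.96 ± 0.30 in WT (adjusted p = 0.0025). Its smn2 call was lost without either 910 library of smn2 (adjusted p = 0.0831 without the 0 h and 0.129 without the 4 h library).

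**Figure D3:**
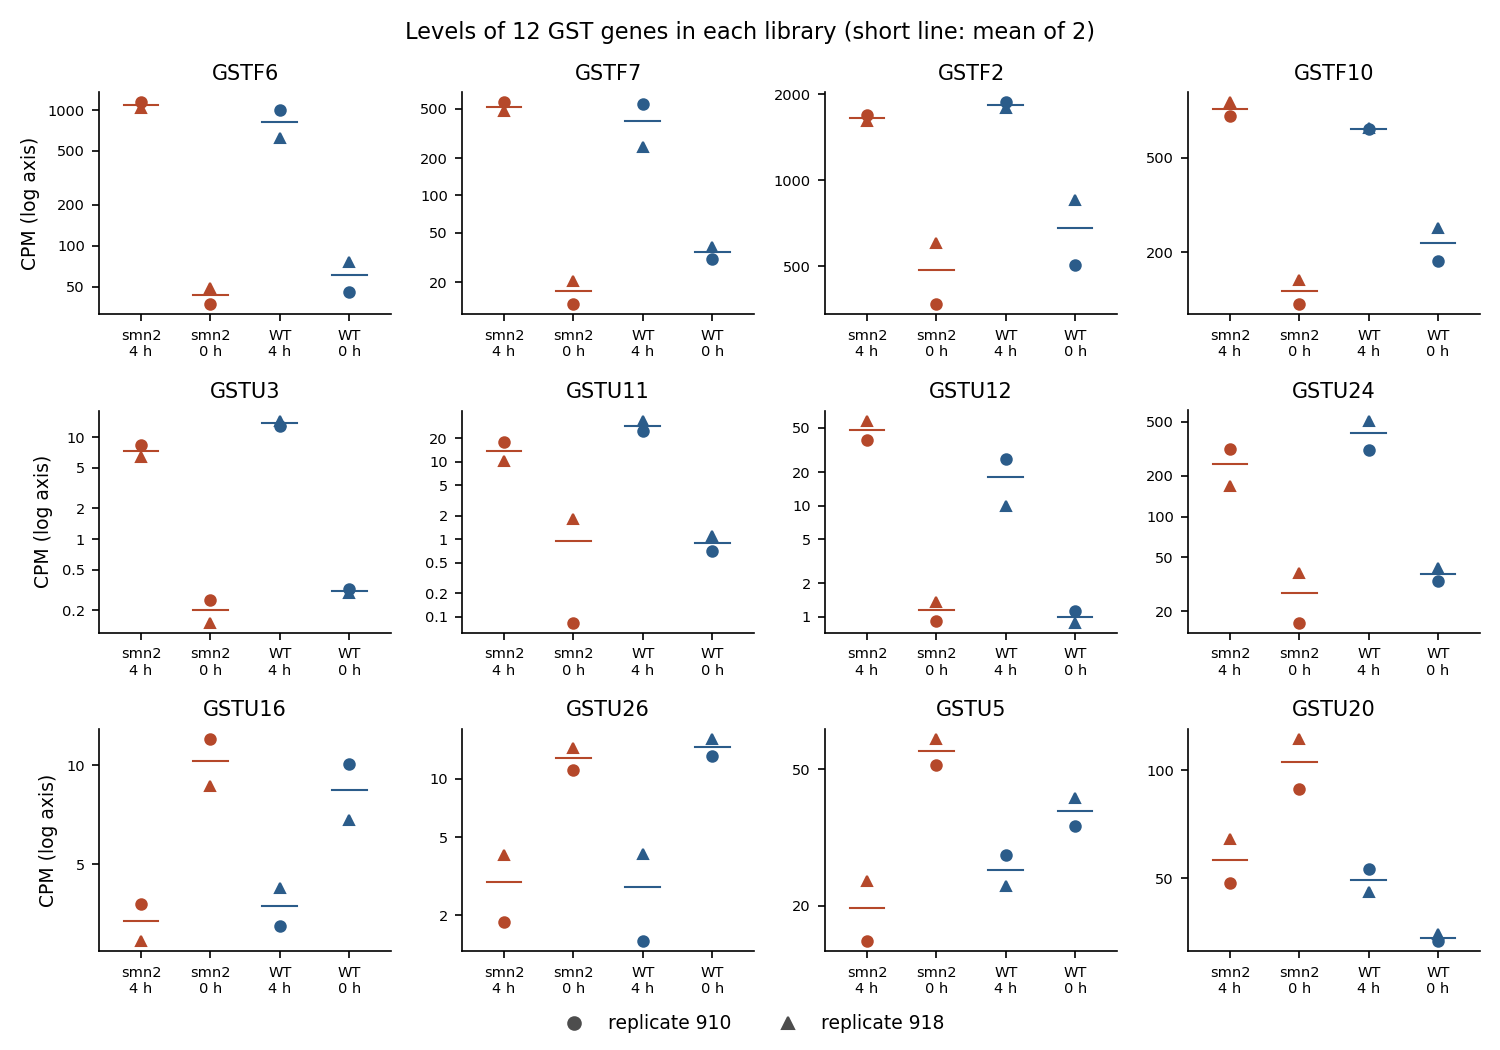
CPM on a log axis of 12 members in each library, with smn2 at 4 h and 0 h left of WT at 4 h and 0 h; circles are replicate 910, triangles replicate 918 and short lines the mean of 2. The upper 8 genes are high at 4 h in both genotypes, GSTU16, GSTU26 and GSTU5 are low at 4 h, and GSTU20 is highest in smn2 at 0 h.

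The other members that rose did so by smaller steps. GSTF2 had 1696 and 1615 CPM in smn2 at 4 h, against 369 and 605 CPM at 0 h, and 1874 and 1792 CPM in WT at 4 h, against 505 and 851 CPM at 0 h. Its log2 change was 1.77 ± 0.35 in smn2 (SE, adjusted p = 0.0068) and 1.44 ± 0.34 in WT (adjusted p = 0.020), and the WT call was lost without 1 of 3 WT libraries (0 h of 910, adjusted p = 0.146; 4 h of 910, 0.0778; 4 h of 918, 0.0683). GSTF3, which shares 94.5% of its coding sequence with GSTF2, rose by 1.91 in smn2 and by 1.14 in WT on the log2 scale. GSTF3 had 582 reads over the 8 libraries, 96.2% of them uniquely placed, against 83377 reads of GSTF2. Whether misplaced GSTF2 reads add to the counts of GSTF3 was not tested. The WT call on GSTF3 was lost in 5 fits that left out a library (adjusted p = 0.061 to 0.241). GSTU4 rose by 2.34 in smn2 and 1.75 in WT, and GSTU10 by 1.84 in smn2 and 1.07 in WT. In WT the GSTU4 call was lost without the 0 h library of replicate 910 (adjusted p = 0.0643), and the GSTU10 call without either 0 h library or the 4 h library of 910 (0.0699 to 0.161). GSTU13 (AT1G27130), which acts in the indole glucosinolate pathway of immunity, rose by 1.92 in smn2 (adjusted p = 0.0022). In WT its log2 change was 0.90 (adjusted p = 0.065). GSTU1 rose by 1.31 in WT (adjusted p = 0.014), a call lost without either 918 library of WT (0.0794 and 0.0993), and its log2 change in smn2 was 0.68 (adjusted p = 0.12).

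The stretch of reference sequence before each gene shows which known promoter words these genes carry. W boxes, the sites of WRKY factors that act in immunity, and as-1 core motifs, the sites of TGA factors that switch on many glutathione S-transferase genes, were searched in the 300 bases before the RefSeq gene start (TAIR10.1) of 40 of the 41 members. Windows are shown of GSTU3, GSTU11, GSTU12 and GSTF7, which had log2 changes above 3 in both genotypes. The window of GSTU26, which had the largest called fall in both, is shown beside them. GSTU24 is left out because its window runs into another locus. Capitals mark TTGACC or TTGACT (W box) and TGACG (as-1 core motif) on either strand. On the minus strand lie GSTU3 (chr2:12629641-12629940), GSTU11 (chr1:26338819-26339118), GSTU12 (chr1:26335631-26335930) and GSTF7 (chr1:659981-660280), and on the plus strand GSTU26 (chr1:5874995-5875294).
GSTU3: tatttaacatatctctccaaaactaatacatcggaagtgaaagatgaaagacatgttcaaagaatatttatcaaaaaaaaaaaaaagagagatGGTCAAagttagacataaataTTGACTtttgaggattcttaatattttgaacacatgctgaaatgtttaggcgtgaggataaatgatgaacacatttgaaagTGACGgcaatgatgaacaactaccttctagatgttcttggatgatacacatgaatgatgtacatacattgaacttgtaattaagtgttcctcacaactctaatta
GSTU11: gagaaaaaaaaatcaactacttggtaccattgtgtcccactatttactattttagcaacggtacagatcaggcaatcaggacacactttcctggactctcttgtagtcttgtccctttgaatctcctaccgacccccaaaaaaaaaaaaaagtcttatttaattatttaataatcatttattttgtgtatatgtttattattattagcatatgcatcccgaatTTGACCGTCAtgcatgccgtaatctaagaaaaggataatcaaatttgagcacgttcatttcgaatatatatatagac
GSTU12: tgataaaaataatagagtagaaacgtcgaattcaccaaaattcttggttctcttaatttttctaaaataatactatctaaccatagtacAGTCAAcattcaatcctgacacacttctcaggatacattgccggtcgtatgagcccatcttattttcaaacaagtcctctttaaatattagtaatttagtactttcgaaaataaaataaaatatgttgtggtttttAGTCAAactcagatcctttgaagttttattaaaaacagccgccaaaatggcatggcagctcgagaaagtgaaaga
GSTF7: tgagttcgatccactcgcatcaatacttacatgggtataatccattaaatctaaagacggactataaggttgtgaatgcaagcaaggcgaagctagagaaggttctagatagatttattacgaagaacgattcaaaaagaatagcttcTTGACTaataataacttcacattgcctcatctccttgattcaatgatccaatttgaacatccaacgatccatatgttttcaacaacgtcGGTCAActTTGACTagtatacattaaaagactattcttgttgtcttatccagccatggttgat
GSTU26: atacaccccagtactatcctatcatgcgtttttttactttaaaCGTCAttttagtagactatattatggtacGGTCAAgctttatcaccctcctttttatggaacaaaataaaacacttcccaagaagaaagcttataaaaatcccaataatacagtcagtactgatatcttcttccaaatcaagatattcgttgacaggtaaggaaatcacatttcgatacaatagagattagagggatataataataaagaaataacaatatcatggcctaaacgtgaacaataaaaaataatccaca

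GSTF7 held 3 W boxes, GSTU3 and GSTU12 held 2 each, and GSTU11 held 1 that shares bases with an as-1 core motif. GSTU26, although it fell, also held a W box and an as-1 core motif. Over the family, the W box letters TTGACC or TTGACT, read on both strands, were present in 20 of the 40 windows (50%), against 32.3% of the windows of 27442 genes. Of the 12 members searched that rose in both genotypes, 11 held one, all but GSTF2, against 2 of the 6 that fell in WT or smn2 and 7 of the other 22. The as-1 core motif TGACG, on both strands, was present in 17 of 40 windows (42.5%), against 21.3% of all windows, and in 7 of the 12, 3 of the 6 and 7 of the 22. The G box CACGTG was present in 2 of 40 windows (5.0%, against 7.08% of all) and the GCC box GCCGCC in 3 of 40 (7.5%, against 2.26%). These shares describe the reference sequence of Columbia, not of Landsberg erecta, and 10 of the 40 windows run into another locus. Among those 10 are the windows of GSTF2, GSTU10 and GSTU24, which belong to the 12. GSTU1 is shown for its pair of as-1 core motifs (chr2:12632591-12632623, minus strand), whose starts lie 12 bases apart, since the classical as-1 element is such a tandem pair.
GSTU1: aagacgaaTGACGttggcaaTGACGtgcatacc

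**Figure D4:**
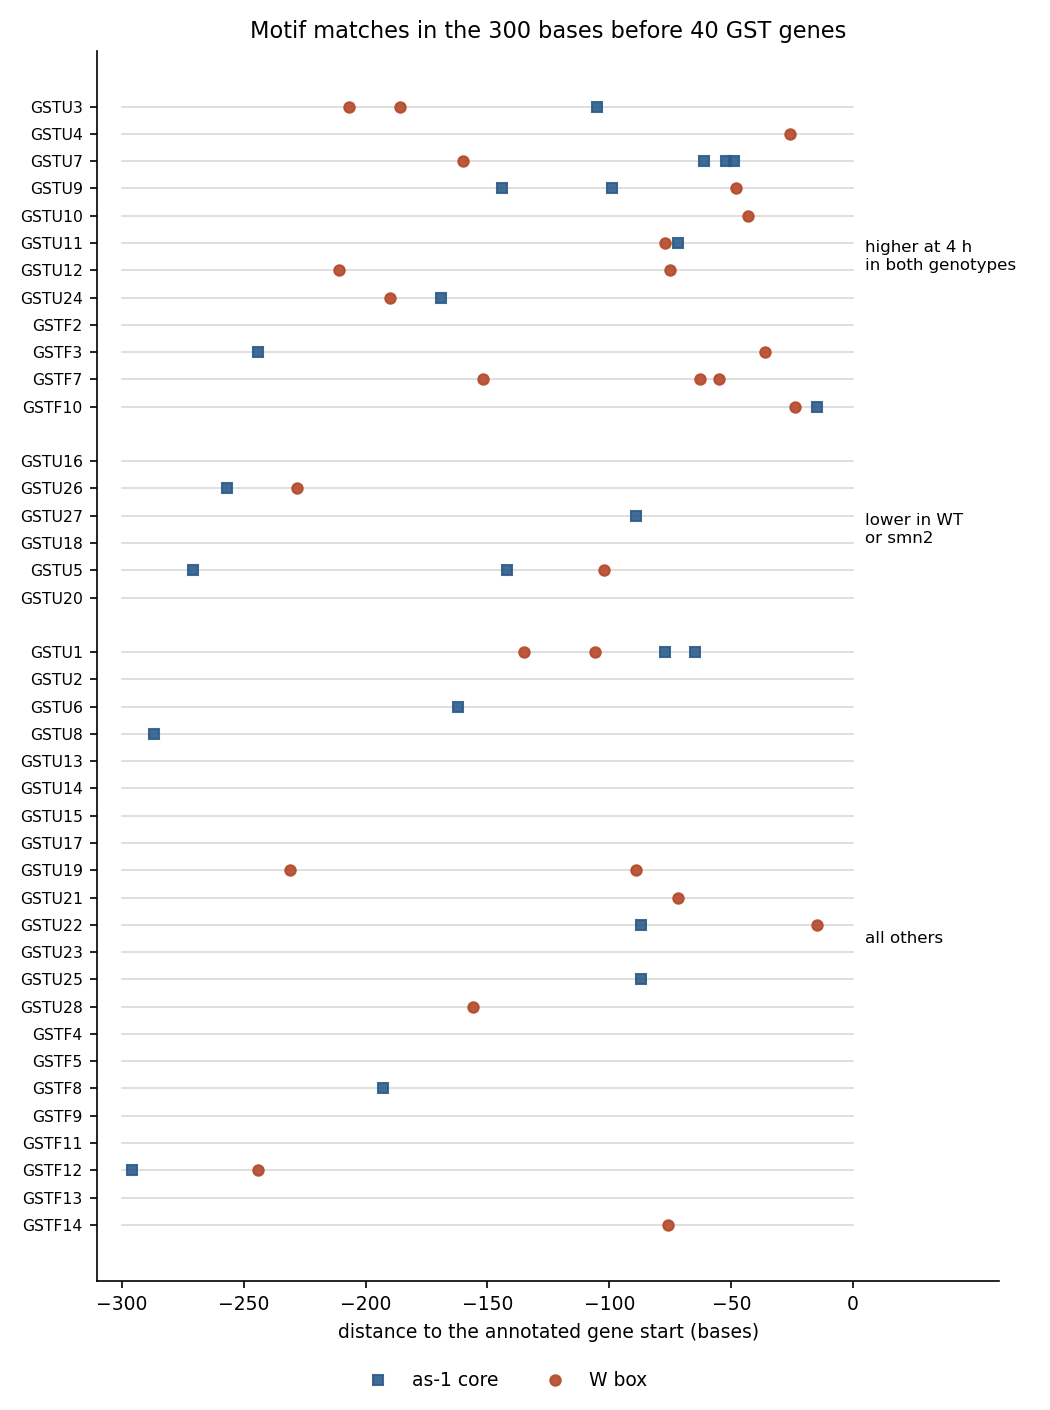
Positions of W box (circles) and as-1 core motif (squares) matches in the 300 bases before the annotated start of each of 40 members, in bases from the start. The top block holds 12 genes that rose in both genotypes, of which 11 have a W box, the middle block the 6 that fell in WT or smn2, of which 2 have one, and the bottom block the other 22, of which 7 have one.

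Falls were smaller than the largest rises. GSTU26 (AT1G17190), known to be induced by chloroacetanilide herbicides and by cold, had 1.85 and 4.06 CPM in smn2 at 4 h, against 11.2 and 14.4 CPM at 0 h, and 1.47 and 4.10 CPM in WT at 4 h, against 13.0 and 16.0 CPM at 0 h. It fell in both, with log2 changes of -2.15 ± 0.47 in smn2 (SE, adjusted p = 0.011) and -2.41 ± 0.46 in WT (adjusted p = 0.0074). In both genotypes the 4 h library of replicate 910 was the lower one, and without it the smn2 call was lost (log2 change -1.64, adjusted p = 0.0953). Without the 4 h library of replicate 918 the log2 change was -2.77 in smn2 and -3.29 in WT. GSTU16 (AT1G59700) had 3.80 and 2.93 CPM in smn2 at 4 h, against 11.98 and 8.65 CPM at 0 h, and 3.25 and 4.23 CPM in WT at 4 h, against 10.04 and 6.81 CPM at 0 h. It fell by 1.61 ± 0.34 in smn2 (adjusted p = 0.0088), a call lost without the 0 h library of 910 (0.0514) or the 4 h library of 918 (0.0691). In WT it fell by 1.19 ± 0.33 (adjusted p = 0.035), a call lost in 5 fits that left out a library (adjusted p = 0.050 to 0.235). The groups of GSTU16 and GSTU26 did not overlap between times in either genotype. In each genotype the same held for most uncalled members, GSTU14 and GSTU28 among them.

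GSTU27 (AT3G43800) had 18.1 and 21.9 CPM in smn2 at 4 h, against 32.9 and 33.8 CPM at 0 h, and 18.5 and 28.3 CPM in WT at 4 h, against 39.2 and 42.0 CPM at 0 h. It fell in both, with log2 changes of -0.74 ± 0.23 in smn2 (SE, adjusted p = 0.0496) and -0.80 ± 0.23 in WT (adjusted p = 0.042), but the smn2 call was lost with DESeq2 (adjusted p = 0.0687) and in 6 fits that left out a library (0.066 to 0.245). The WT call was lost with only the 4 WT libraries in the fit (0.0579) and in 5 fits that left out a library (0.060 to 0.211). GSTU5 (AT2G29450) had 15.7 and 23.6 CPM in smn2 at 4 h, against 51.5 and 61.1 CPM at 0 h, and 28.0 and 22.9 CPM in WT at 4 h, against 34.2 and 41.1 CPM at 0 h. It fell by 1.53 ± 0.24 in smn2 (adjusted p = 0.0023), and its log2 change in WT was -0.56 ± 0.24 (adjusted p = 0.14). The difference between these changes was -0.97 ± 0.34, with an unadjusted p of 0.017, and it did not pass the adjustment. Of GSTU5 reads, 5.17% in smn2 at 4 h and 10.5% in smn2 at 0 h lay in introns. In WT these shares were 0.45% at 4 h and 1.14% at 0 h. At 0 h GSTU10 had 9.84% in smn2 and 6.30% in WT, and GSTU18 had 12.3% in smn2 and 14.0% in WT. None of these intron shares was tested. GSTU18 (AT1G10360) had 2.50 and 2.60 CPM in smn2 at 4 h, against 4.53 and 4.10 CPM at 0 h, and 1.57 and 2.12 CPM in WT at 4 h, against 4.83 and 5.23 CPM at 0 h. It fell by 1.45 ± 0.34 in WT (adjusted p = 0.018), a call lost without any 1 of the 4 WT libraries (0.056 to 0.111), and its log2 change in smn2 was -0.76 ± 0.34 (adjusted p = 0.14).

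GSTU20 (AT1G78370) was the one member called between the genotypes, and this was at 0 h. GSTU20 is known as a partner of the jasmonate-conjugating enzyme JAR1 in light signalling and is implicated in glucosinolate synthesis. Its groups at 0 h did not overlap, and neither did those of most uncalled members at 0 h, GSTU14 and GSTU28 among them. At that time GSTU20 had 88.7 and 122 CPM in smn2, against 33.4 and 35.0 CPM in WT. The log2 difference was 1.62 ± 0.23 (SE, adjusted p = 0.013), where 0.733% of all loci tested were higher in smn2 and 0.270% lower. The call was lost without the WT 0 h library of replicate 910 (adjusted p = 0.102) or 918 (0.126) and with only the 4 libraries of 0 h in the fit (0.0830). At 4 h it had 48.6 and 64.2 CPM in smn2, against 53.2 and 45.8 CPM in WT, and these overlapped, with a log2 difference of 0.19 ± 0.23 (adjusted p = 0.89). Between times GSTU20 fell by 0.90 ± 0.23 in smn2 (adjusted p = 0.020), a call lost without the 4 h library of 910 (0.147) or the 0 h library of 918 (0.105). Its log2 change in WT was 0.53 ± 0.23 (adjusted p = 0.14). The difference between the changes was -1.44 ± 0.32, with an unadjusted p of 0.0013 and an adjusted p of 0.70.

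No other member was called between the genotypes at 0 h by edgeR, where 9 of the 37 (24.3%) had an unadjusted p below 0.05, against 10.2% of all loci tested. GSTF11 (AT3G03190), which acts in the synthesis of aliphatic glucosinolates, had 2.60 and 3.03 CPM in smn2 at 0 h, against 0.32 and 0.59 CPM in WT at 0 h. Its log2 difference of 2.66 ± 0.57 had an adjusted p of 0.075 with edgeR and of 0.0390 with DESeq2, and the 0 h groups did not overlap. At 4 h its 1.20 and 1.46 CPM in smn2 lay within the range of the 2.098 and 1.06 CPM in WT. At 4 h none of the 37 members was called between smn2 and WT by edgeR or by DESeq2, where 0.280% of all loci tested were higher and 0.0305% lower in smn2. At an unadjusted p below 0.05 there were 5 of the 37 (13.5%), against 7.94% of all loci tested. Of those 5, GSTU19 and GSTU12 had the highest levels per kilobase, with log2 differences of -0.63 ± 0.27 (adjusted p = 0.62) and 1.40 ± 0.40 (adjusted p = 0.32).

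The 16 tested members called in neither genotype at 4 h were GSTU2, GSTU6, GSTU8, GSTU14, GSTU17, GSTU19, GSTU22, GSTU23, GSTU25, GSTU28, GSTF4, GSTF8, GSTF9, GSTF11, GSTF12 and GSTF14. Their log2 changes ran from -2.07 to 0.89 in smn2 and from -2.71 to 1.86 in WT, and a missing call does not show that a gene held its level. GSTF9 (AT2G30860), the second most abundant member per kilobase at 4 h in WT, had 873 and 1066 CPM in smn2 at 4 h, against 275 and 777 CPM at 0 h, and 868 and 1043 CPM in WT at 4 h, against 189 and 604 CPM at 0 h. Both 4 h libraries lay above both 0 h libraries in each genotype, but the 0 h replicates lay far apart, the 918 library being the high one in both genotypes. GSTF8 had 282 and 134 CPM in smn2 at 4 h, against 229 and 311 CPM at 0 h, and 287 and 220.0 CPM in WT at 4 h, against 347 and 375 CPM at 0 h, so that the times overlapped in smn2 and not in WT. GSTF12 (AT5G17220), which is needed for anthocyanins to reach the vacuole, had 0.76 and 1.46 CPM in smn2 at 4 h, against 7.71 and 0.91 CPM at 0 h, and 0.52 and 0.40 CPM in WT at 4 h, against 4.83 and 1.19 CPM at 0 h. Its 0 h replicates differed more than most, the 910 library being the high one in both genotypes. Its log2 change in WT, -2.71, was not called by edgeR in the fit of all libraries, but it was called with DESeq2 (-2.72, adjusted p = 0.034), with only the 4 WT libraries (0.044) and without either smn2 0 h library (0.040 and 0.032). In smn2 it was called without the 0 h library of replicate 918 (-2.84, adjusted p = 0.027), and it was called in both genotypes without a low-count filter (adjusted p = 0.0016 in smn2 and 0.00013 in WT). GSTF4 is uncertain, since as few as 48.5% of its reads in a group were uniquely placed. For the other members over 90% were, and over the whole family 98.4% to 99.5% per library.

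Neighbouring genes did not always move together. By a gap below 20000 bases between spans, 29 members lie in 9 tandem clusters and 12 outside (positions in the authors' table, TAIR10). The largest cluster, on chromosome 2 (12617936 to 12632473), runs GSTU7, GSTU6, GSTU5, GSTU4, GSTU3, GSTU2 and GSTU1. In it 3 genes rose and 1 fell in smn2, with log2 changes from -1.53 for GSTU5 to 5.03 for GSTU3, and 4 rose and none fell in WT. The cluster of GSTU24, GSTU25 and GSTU26 on chromosome 1 (5869846 to 5876545) held a gene that rose and a gene that fell in both genotypes, GSTU24 and GSTU26, with GSTU25 between them uncalled. GSTU25 had 32.7 and 14.3 CPM in smn2 at 4 h, against 6.45 and 20.5 CPM at 0 h, and 26.2 and 27.1 CPM in WT at 4 h, against 16.9 and 17.1 CPM at 0 h. Both GSTU12 and GSTU11 rose on chromosome 1 (26334250 to 26338795). Beside GSTF7 and GSTF6 on chromosome 1 (658657 to 666452), GSTF5 was not tested and GSTF4 was not called. The 5 genes from GSTU23 to GSTU19 on chromosome 1 (29467437 to 29487906) held the most abundant tau gene, GSTU19. None of the 5 was called higher at 4 h by edgeR in the fit of all libraries. GSTU19 (AT1G78380), which detoxifies herbicides and other xenobiotics, had 333 and 323 CPM in smn2 at 4 h, against 255 and 406 CPM at 0 h, and 481 and 536 CPM in WT at 4 h, against 236 and 316 CPM at 0 h. The times overlapped in smn2 and did not in WT. With edgeR the log2 change of GSTU19 was -0.01 in smn2 (adjusted p = 0.98) and 0.88 in WT (adjusted p = 0.055). DESeq2 called GSTU19 higher in WT (0.87, adjusted p = 0.019), as did the fit with a replicate block.

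**Figure D5:**
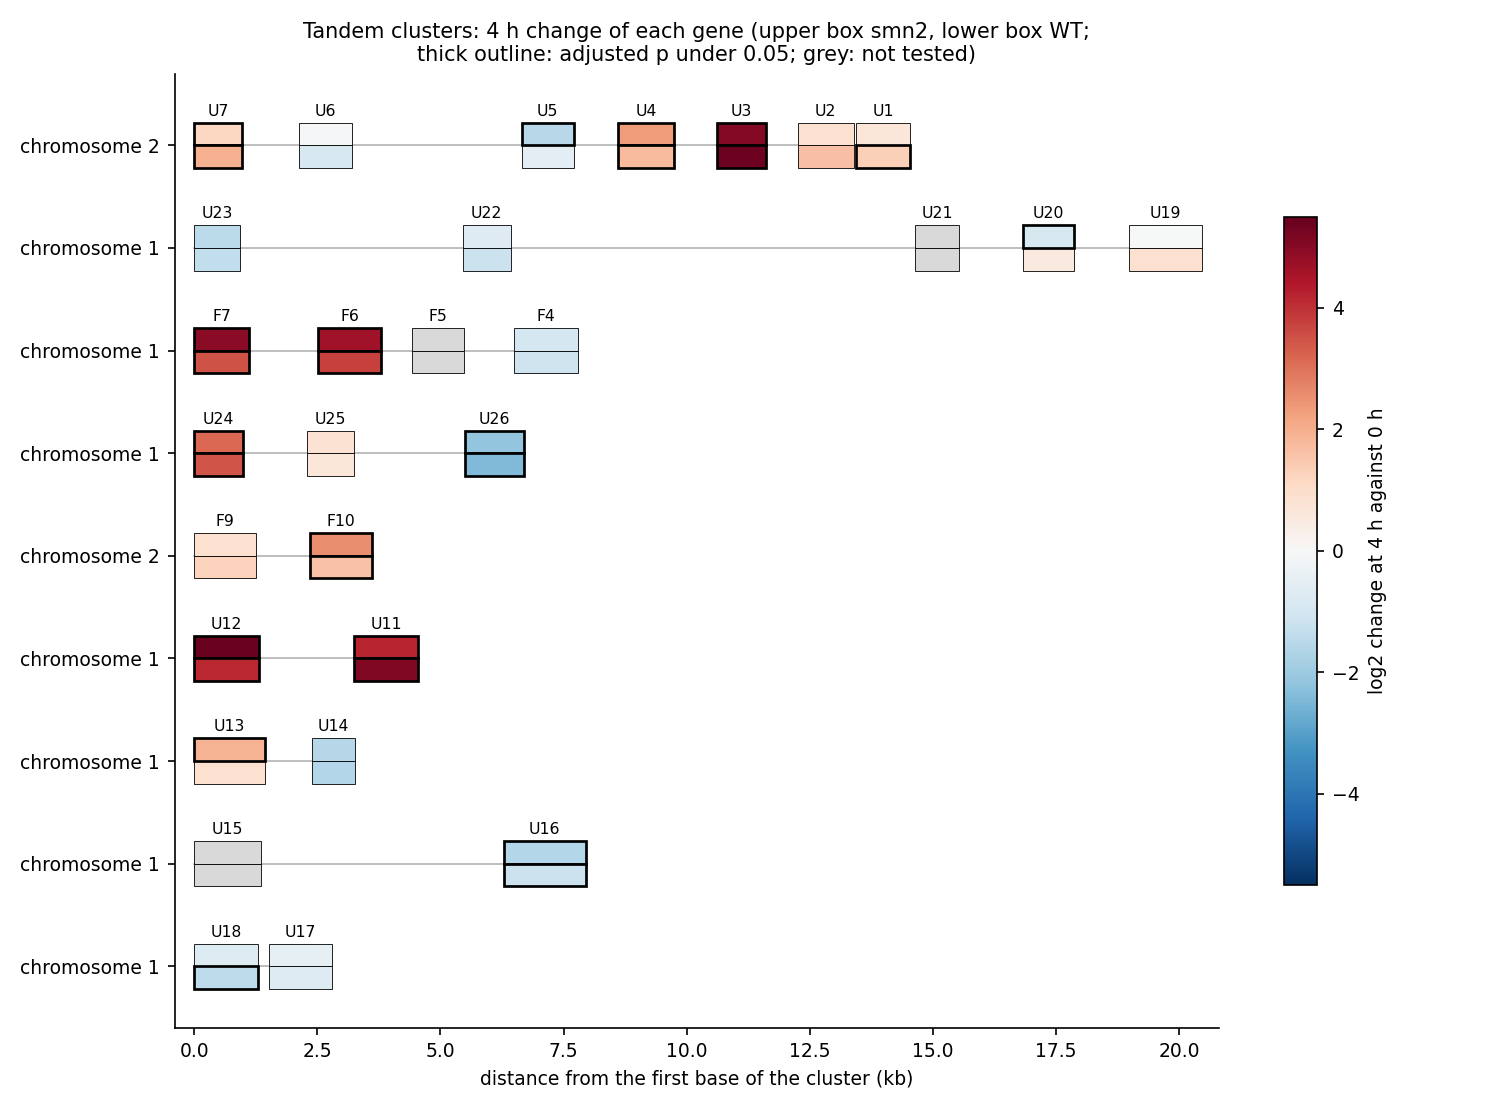
The 9 tandem clusters drawn to scale from the first base of each in kilobases, every gene as a pair of boxes coloured by its log2 change at 4 h (upper box smn2, lower box WT). Thick outlines mark an adjusted p below 0.05 and grey boxes genes not tested; GSTU24 is red and GSTU26 blue in the same cluster of 3.

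Some genes that supply, use or clear glutathione also changed at 4 h. Of all loci tested, 12.6% rose and 8.88% fell in smn2, and 10.1% rose and 6.56% fell in WT. In lists as short as these, 1 gene that rose is near those shares. Of 7 genes of glutathione synthesis and reduction, 3 rose in each genotype: GSH1, which makes gamma-glutamylcysteine, GSH2, which completes glutathione, and CLT3, a plastid thiol transporter. GSH2 had 207 and 143 CPM in smn2 at 4 h, against 45.2 and 54.2 CPM at 0 h, and 175.2 and 152 CPM in WT at 4 h, against 52.2 and 57.5 CPM at 0 h. Its log2 change was 1.82 in smn2 and 1.58 in WT. CLT3 rose by 1.96 in smn2 and 1.82 in WT, and GSH1 by 1.12 in smn2 and 1.17 in WT. The GSH1 call was lost without the 0 h library of 910 or the 4 h library of 918 in smn2 (adjusted p = 0.069 and 0.082) and without either 910 library in WT (0.077 and 0.102). Of 11 genes that break down glutathione and its conjugates, 10 were tested, and 3 rose in smn2, while 2 rose and 2 fell in WT. GGP1, a peptidase that trims glutathione conjugates in the glucosinolate and camalexin pathways, rose by 2.06 in smn2 and by 1.73 in WT. Of 8 glutathione peroxidase-like genes 6 were tested, and GPXL2 alone rose in each genotype. Of 7 ABCC transporters, which pump conjugates into the vacuole, ABCC3 alone rose, by 1.65 in smn2 and by 1.63 in WT. Of the other soluble glutathione S-transferase classes, 11 of 12 genes were tested, and 1 rose and 2 fell in smn2, while 1 rose and 1 fell in WT. DHAR1, which regenerates ascorbate, fell in both, with log2 changes of -0.99 in smn2, a call lost without the 4 h library of 910 (adjusted p = 0.075), and -1.32 in WT.

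Of 12 genes of xenobiotic and oxylipin detoxification, 9 rose in smn2 and 10 in WT and none fell. Of all loci tested, 12.6% rose in smn2 and 10.1% in WT, and 8.88% and 6.56% fell. These 12 genes are often induced by the same chemicals as the transferases, and were chosen with earlier results of these data known. DTX1, an efflux transporter for toxic compounds, had 120 and 85.0 CPM in smn2 at 4 h, against 0.59 and 1.67 CPM at 0 h, and 87.6 and 85.1 CPM in WT at 4 h, against 2.90 and 4.05 CPM at 0 h. Its log2 change was 6.65 in smn2, with 5.93 and 7.42 without either 0 h library, and 4.66 in WT. UGT74E2, a glucosyltransferase acting on the auxin indole-3-butyric acid, rose by 3.52 in smn2, with 2.73 to 4.11 without either 910 library, and by 4.06 in WT. Among 7 genes of TGA factors and their partner SCL14, TGA4 rose by 1.12 in smn2 and 1.39 in WT, though in smn2 the call was lost when exon reads alone were counted (adjusted p = 0.128). TGA1 fell by 0.97 in smn2, a call lost without the 4 h library of 918 (adjusted p = 0.081).

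The 5 leaf markers were genes of photosynthesis. In smn2 they summed to 5929 and 3437 CPM at 4 h, against 7928 and 11455 CPM at 0 h. In WT they summed to 6775 and 3357 CPM at 4 h, against 8201 and 11834 CPM at 0 h. Their fall was larger in replicate 918 than in replicate 910 in both genotypes. None of the 5 was called in either genotype, none was at 0, and their part in the 4 h changes was not tested. In smn2 the 8 root markers summed to 272 and 199 CPM at 4 h, against 120 and 134 CPM at 0 h. In WT they summed to 189 and 175.04 CPM at 4 h, against 182 and 165 CPM at 0 h. The smn2 sums did not overlap between times, and SULTR1;2, a sulfate transporter and the one root marker that rose in smn2, made up most of them, with 237 and 169 CPM at 4 h, against 68.3 and 91.2 CPM at 0 h. The other 7 root markers summed to 34.5 and 29.4 CPM in smn2 at 4 h, against 51.2 and 42.6 CPM at 0 h, and to 50.2 and 66.2 CPM in WT at 4 h, against 84.3 and 61.7 CPM at 0 h. All 7 had negative log2 changes in smn2, from -1.54 to -0.30, with none called. In WT 6 of the 7 were negative and COBL9 alone was called (log2 change -1.48, adjusted p = 0.048), a call lost in 5 fits that left out a library (0.068 to 0.310). The part of the root markers in the results was not tested either. Intronic reads were 0.40% to 1.02% of the family's reads per library, against 30.7% to 48.7% of the reads of all loci, ribosomal RNA loci included. The 4 ribosomal RNA loci alone took 26.7% to 44.4% of all gene reads. Both ranges were lowest in smn2 at 4 h of replicate 910 and highest in WT at 4 h of replicate 918. The intron share without these loci was not computed, so the family is not compared here with other protein-coding genes.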

How the data were processed

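Poly(A) RNA of whole seedlings was sequenced on an Ion Proton instrument in 8 libraries, grouped by the genotype and time in their titles. Per the file headers, the deposited table gives total, unique, exon and intron read counts per locus from trimmed single-end reads, with exon lengths and no normalization. The submitters' processing notes name TAIR10; the sources used here name no aligner and no strand setting of the counting, and differences between Landsberg erecta and the reference were not taken into account.

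Total gene counts as deposited were tested with edgeR 4.0.16 (R 4.3.3), TMM normalization, filterByExpr and the quasi-likelihood test, in 1 fit of all 8 libraries that left 4 residual degrees of freedom. The Benjamini-Hochberg adjustment ran over 19649 loci, with a threshold of 0.05, for the 4 h change in smn2, that in WT, smn2 against WT at each time and the difference of the 4 h changes. CPM are per 1000000 TMM-scaled gene reads, and 3 counts correspond to 0.161 to 0.488 CPM. The common biological coefficient of variation was 0.229. The fit was run on simulated counts with the same common variation for every locus and no effect of the sequencing run. That checks the code and does not measure error rates in these data.

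The numbers 910 and 918 mark 2 sequencing runs, per the file headers, and so pair the libraries by run. Deviations from the group means correlated over 19649 loci with r of 0.452 between WT and smn2 at 0 h. For the other pairs of groups r was 0.048 to 0.135. The main fit took no account of the run, while the replicate block did. Nothing says beyond "biological replicates" how the replicates were grown.

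The alternatives were DESeq2 1.42.0, its size factors, no low-count filter, unique or exon reads, only the libraries compared, a replicate block, no ribosomal RNA loci and each library left out.

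Promoter windows were read from the RefSeq TAIR10.1 genome, where the spans of all 41 members overlap those of the table. Only 3 members have the same start and end in both, so the windows depend on the RefSeq gene starts. The window of 1 member is not reported here. Coding identities came from pairwise alignments of RefSeq coding sequences. Symbols of 28009 loci came from the RefSeq gene table. Any member could be named. In each comparison, values in every library with tests are given for the up to 8 largest rises and falls past the threshold and for some others of interest for their level. From each other list at most 3 genes in each direction are named. The members and lists were chosen with earlier results of these data known.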

Additional observations from a re-analysis of the deposited data

How the results depend on the processing

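No log2 change of a called member changed sign under any alternative run. Without a low-count filter, 26915 loci were tested. In smn2 at 4 h, 17 members rose and 7 fell (14 and 5 with the filter), against 11.2% and 8.84% of all loci. In WT, 18 rose and 7 fell (14 and 4), against 9.14% and 7.87% of all loci. Between genotypes, 2 members were higher and 2 lower in smn2 at 0 h (1 and 0), against 1.62% and 1.63% of all loci. At 4 h, 1 was higher and 1 lower in smn2 (0 and 0), against 1.26% and 0.524% of all loci. The difference of the 4 h changes called GSTF7 higher (1.46) and GSTU20 lower (-1.41), and neither with the filter. Of all loci, it called 0.550% higher and 0.137% lower. At 0 h, 2 members were higher in smn2 with DESeq2 and 0 with only the 4 libraries compared, against 1.23% and 0.0835% of all loci. Leaving out each library in turn gave 13 to 15 rises and 3 to 5 falls in smn2, 9 to 16 rises and 1 to 5 falls in WT, and 0 to 1 member higher in smn2 at 0 h. Of the 14 rises, 13 in smn2 and 8 in WT (GSTU3, GSTU7, GSTU11, GSTU12, GSTU24, GSTF6, GSTF7 and GSTF10) were called in every alternative, as were the falls of GSTU5 in smn2 and GSTU26 in WT. The replicate block gave 17 rises and 4 falls in WT, 14 and 5 in smn2 and 1 member higher at 0 h, and ended no call. With the block, 12.1% of all loci rose and 8.66% fell in WT, and 14.6% rose and 11.3% fell in smn2. At 0 h, 1.14% of all loci were then higher in smn2. DESeq2 size factors and leaving out ribosomal RNA loci changed no call of a member, and unique or exon reads added GSTU2 in WT. The difference of the 4 h changes has no value with only 4 libraries. The causes of these changes were not tested. With 2 replicates a group and 1 to 13 reads at 0 h in a library, the sizes of the changes of GSTU3 and GSTU11 are known only roughly.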

Other observations

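Read depth of single genes set limits that the counts of calls do not show. GSTU3 had 3 reads and 1 read in smn2 at 0 h, against 6 and 3 reads in WT at 0 h, and GSTU11 had 1 read and 12 reads in smn2 at 0 h, against 13 and 11 reads in WT at 0 h. GSTF12 differed more between replicates than between genotypes at 0 h, with 92 and 6 reads in smn2, against 90 and 12 reads in WT.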
